A study of Homo sapiens with 18 samples.

Results

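The genes described here encode the alpha and beta tubulins, the building blocks of microtubules. They were chosen by symbol in the deposited count table: 4 alpha tubulin genes (TUBA1A, TUBA1B, TUBA1C and TUBA4A) and 6 beta tubulin genes (TUBB, TUBB2A, TUBB2B, TUBB3, TUBB4B and TUBB6), 10 of the 28394 genes in the table. All 10 were present, and 9 passed the filter on low counts. The 10th, TUBB, had almost no counts in any library.

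The study used HEK293T, an established line of human embryonic kidney cells, in 18 libraries of poly(A)-selected RNA. Each of 3 stable lines carried a GFP reporter under a doxycycline-inducible promoter. Past the self-cleaving P2A peptide, the reporter continued into the red fluorescent protein ChFP (negative control), into a poly-adenylate stretch, or into 102 proline-arginine repeats (102xPR). The stated question was whether ribosome stalling on poly-adenylate evoked the same expression response as stalling on poly-PR. Each line was studied uninduced and after 48 h of doxycycline, given in the labels as 500 ng/μl, with 3 libraries in each of the 6 groups. The lines differ in their construct, uninduced cells of every line received no doxycycline, and induced ChFP cells give the background of doxycycline and reporter expression. RNA came from a cleared detergent lysate that contained cycloheximide, a drug that holds ribosomes on messages. The labels do not say that replicates were separate cultures, nor whether each line was 1 clone, and a p-value here measures the spread between libraries alone, which may be technical.

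Alpha and beta tubulin are made in matched amounts, folded by the CCT chaperonin with prefoldin, and joined into dimers by the tubulin-binding cofactors. Cells control tubulin messages while they are being translated. When free dimers are in excess, TTC5 binds the first residues of the new tubulin chain at the ribosome exit and, through SCAPER, brings in the CCR4-NOT deadenylase, which starts decay of that message.

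The residues that TTC5 reads lie at the start of the protein, so the coding starts of the members are shown first. Each line gives the first 15 bases of the coding sequence in GENCODE 29, 5′ to 3′, with codons 2 to 4 in capitals. The capitals code for arginine, glutamate and cysteine in the alpha genes and for arginine, glutamate and isoleucine in the beta genes.
TUBA1A: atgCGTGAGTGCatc
TUBA1B: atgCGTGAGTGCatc
TUBA1C: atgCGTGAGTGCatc
TUBA4A: atgCGTGAATGCatc
TUBB: atgAGGGAAATCgtg
TUBB2A: atgCGCGAGATCgtg
TUBB2B: atgCGTGAGATCgtg
TUBB3: atgAGGGAGATCgtg
TUBB4B: atgAGGGAAATCgtg
TUBB6: atgAGGGAGATCgtg

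Among 14148 coding sequences of GENCODE 29, 1 principal transcript a gene, 19 carried such codons in these places (0.134%). They were the 10 members and 9 further tubulin genes, and no other gene. Gamma, delta and epsilon tubulin, which do not form the dimer of the microtubule wall, carry other codons in these places. In TUBG1 and TUBG2 codons for arginine, glutamate and isoleucine come a codon later. The starts of the gamma, delta and epsilon genes are shown for comparison.
TUBG1: atgCCGAGGGAAatc
TUBG2: atgCCCCGGGAGatc
TUBD1: atgTCAATTGTAaca
TUBE1: atgACCCAGTCGgtg

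In RefSeq on GRCh38.p14, 3 alpha genes lie near each other on the long arm of chromosome 12: TUBA1B at chr12:49127782-49131395 and TUBA1A at chr12:49184795-49189080 on the minus strand, and TUBA1C at chr12:49227926-49274600 on the plus strand. TUBA4A lies at chr2:219249710-219254740 on the minus strand. TUBB2A (chr6:3153666-3157544) and TUBB2B (chr6:3224277-3227653) are neighbours on the minus strand of chromosome 6, and TUBB lies elsewhere on the same chromosome at chr6:30720352-30725422 on the plus strand. TUBB3 (chr16:89921925-89936097), TUBB4B (chr9:137241287-137243707) and TUBB6 (chr18:12307669-12329826) lie on the plus strand of other chromosomes. Coding sequences of the alpha members were 84.4% to 97.2% identical in 6 pairs, and those of the beta members 80.9% to 98.1% in 15 pairs.

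Such likeness bears on counting, because a read that fits 2 genes may be dropped or split. Each transcript was read in windows of 100 bases, the read length, and the windows found unchanged in another gene were counted. TUBB2A and TUBB2B shared most: 56.4% and 46.2% of their windows occurred in a gene elsewhere, mainly in each other. The share was 37.2% for TUBA1B, 15.7% for TUBA1A, 9.89% for TUBA1C, 5.15% for TUBB3, 5.10% for TUBB and 2.86% for TUBB4B. TUBA4A and TUBB6 shared none with a gene elsewhere. A further kind of sharing was with gene models that overlap the same stretch of genome. It covered 89.0% of TUBB3 windows and 65.4% of TUBA1B windows. For TUBA4A it was 27.4%, for TUBA1C 22.9%, for TUBB 17.1%, for TUBA1A 15.3% and for TUBB4B 1.63%. The treatment of such reads by the counting is not known here. The levels of all members but TUBB6 are uncertain to that extent, most for TUBB2A, TUBB2B, TUBA1B and TUBB3. The bars of shared windows set this out for each gene.

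**Figure D1:**
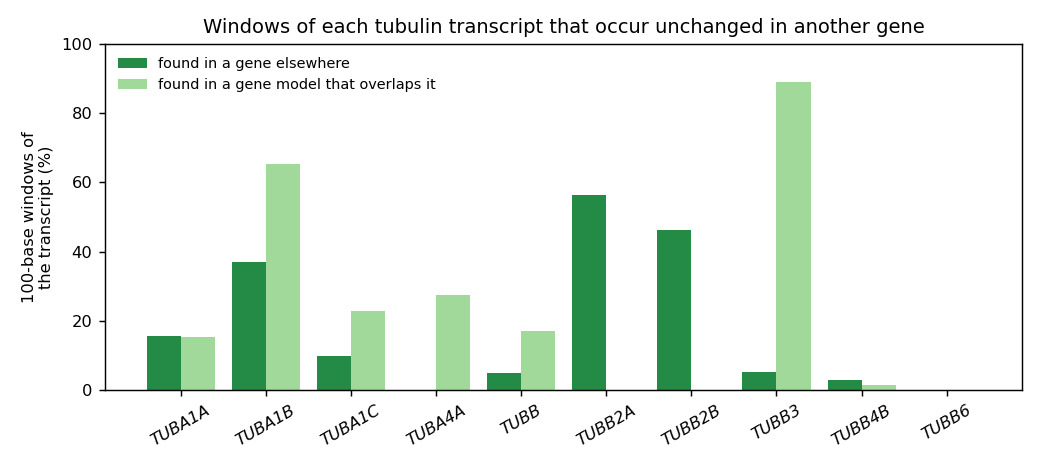
Share of 100-base windows of each tubulin transcript (y axis, percent) that occur unchanged in a gene elsewhere (dark bars) or in a gene model overlapping it (light bars). TUBB2A (56.4%) and TUBB2B (46.2%) share most with a gene elsewhere, TUBB3 (89.0%) most with an overlapping model, and TUBB6 shares none.

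TUBB, the beta tubulin that many cycling cells express, had 3 counts in all: 1 in an uninduced ChFP library, 1 in an induced poly-adenylate library and 1 in an induced 102xPR library. The other 15 libraries held 0. Near-empty rows were common around it. Of 69 protein-coding genes that start within 1 Mb of TUBB, 60 (87.0%) averaged fewer than 10 counts a library, against 30.5% of all 19175 protein-coding genes and 5.88% to 26.9% around the other members. RPS18, a ribosomal protein gene on the same chromosome that every cell uses, had 13 counts over the 18 libraries, and the neighbours FLOT1 and DHX16 had 12 and 16. TUBB is therefore only listed near 0, and no level of expression is read from it; why the table is sparse there was not tested. Every sum over beta tubulin genes below lacks TUBB for this reason. The plot of genes around TUBB shows the extent of the sparse stretch.

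Depth ran from 15020739 to 27331102 counts a library, and the common biological coefficient of variation was 5.75%. The 18 libraries also fell into sets of 10 and 8 on the second principal component of all genes (7.61% of the variance), which crossed the groups. The 8 held induced 102xPR replicates 1 and 2, uninduced poly-adenylate replicates 2 and 3, and in the ChFP line all that were uninduced and replicate 3 of the induced. Mitochondrially encoded messages took 4.46% to 7.15% of their counts, against 2.96% to 5.16% in the other 10, and what set them apart was not tested. Calls of the members that ended with this split are given both ways. As in any bulk sample, fewer cells of a type and less RNA per cell cannot be told apart.

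Levels within a gene are given as CPM, the counts a gene had for each 1000000 counted, with library sizes scaled by TMM factors. Levels are compared between genes only per length, as CPM per kilobase of transcript, for which the library totals were used without TMM factors. TUBA1B was the most abundant member in every group. In uninduced ChFP cells it stood at 633 ± 15.3 CPM per kilobase (SD, n = 3), followed by TUBB4B at 260.1 ± 10.8, TUBA1C at 110.1 ± 1.71, TUBA1A at 60.6 ± 4.09, TUBB6 at 42.1 ± 2.93, TUBB2B at 30.5 ± 2.30 and TUBB2A at 23.6 ± 1.06. TUBA4A (5.41 ± 0.35) and TUBB3 (5.07 ± 0.21), the latter best known from neurons, came last and overlapped. In induced 102xPR cells the order from the top stayed TUBA1B (464 ± 32.6), TUBB4B (232 ± 5.60) and TUBA1C (70.2 ± 3.33), while TUBA1A (39.5 ± 4.07) overlapped TUBB6 (37.2 ± 0.94) and TUBB2B (25.1 ± 2.55) overlapped TUBB2A (23.2 ± 0.38). TUBB3 there reached 8.16 ± 0.58, above the range of TUBA4A (5.54 ± 0.52). The place of TUBA1C depends on the length used: per kilobase of coding sequence it stood at 245 ± 3.79 in uninduced ChFP cells, still below TUBB4B at 318 ± 13.2.

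Most tubulin messages were lower after induction of 102xPR. Of the 9 members tested, 7 fell, 1 (TUBB3) rose and 1 (TUBA4A) did not pass the test. Across all genes tested 33.4% were called lower and 33.8% higher in this comparison, so a fall or a rise alone sets no gene apart. The median log2 change was -0.29 over the members (-0.64 for alpha, -0.27 for beta), against -0.01 over all 15447 genes. All 8 calls held under each of the 16 alternative settings, among them leaving out each library of the line and keeping only the larger library set, where 1 induced 102xPR library remains and is assumed to vary like the other groups.

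The 3 TUBA1 genes, which code for nearly identical alpha tubulins, fell most. TUBA1C stood at 199, 206 and 216 CPM in the induced 102xPR libraries and at 358, 358 and 347 in the uninduced ones. It fell by 0.78 on the log2 scale (SE 0.04), or by 41.6%, with an adjusted p of 2.86e-13 in edgeR's quasi-likelihood test. TUBA1B, the main alpha tubulin of these cells, stood at 715, 717 and 796 CPM after induction and at 1213, 1202 and 1184 before. It fell by 0.69 (SE 0.06), or by 38.1% (adjusted p = 1.32e-10). TUBA1A, the alpha tubulin best known from developing neurons, stood at 83.0, 69.5 and 70.9 CPM against 126, 105 and 103. It fell by 0.58 (SE 0.09), or by 33.1% (adjusted p = 3.34e-05). For each of these genes the 3 induced libraries lay below all 3 uninduced ones, as did 34.6% of all genes tested.

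TUBA4A, a low-level alpha tubulin here, stood at 12.8, 12.01 and 10.5 CPM after 102xPR induction and at 12.1, 10.7 and 10.6 before. The groups overlapped, and the log2 difference was 0.08 with a 95% interval of -0.14 to 0.30. With 212 to 287 counts in each induced library, any change within that interval remains possible, and one of TUBA1B's size lies outside it.

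Of the beta members, TUBB2B and TUBB2A, a pair of close copies, stood at 45.9, 48.4 and 55.1 CPM against 71.5, 71.1 and 64.5, and at 36.1, 36.3 and 36.7 against 43.0, 44.5 and 43.4. TUBB2B fell by 0.47 (SE 0.08; adjusted p = 3.75e-05) and TUBB2A fell by 0.26 (SE 0.06; adjusted p = 0.000871). With library set as a covariate the change of TUBB2B was -0.33. TUBB4B, the main beta tubulin counted, stood at 370.4, 370.6 and 381 CPM against 469, 447 and 455. It fell by 0.29 (SE 0.05), or by 18.2% (adjusted p = 5.15e-06). TUBB6 stood at 77.2, 74.3 and 75.1 CPM against 98.1, 89.3 and 86.0, and fell by 0.27 (SE 0.06; adjusted p = 0.000314). In none of these 4 genes did the induced and uninduced libraries overlap, and 34.6% of all genes tested likewise lay lower without overlap. The panels of CPM by library show the step in the induced 102xPR group.

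**Figure D2:**
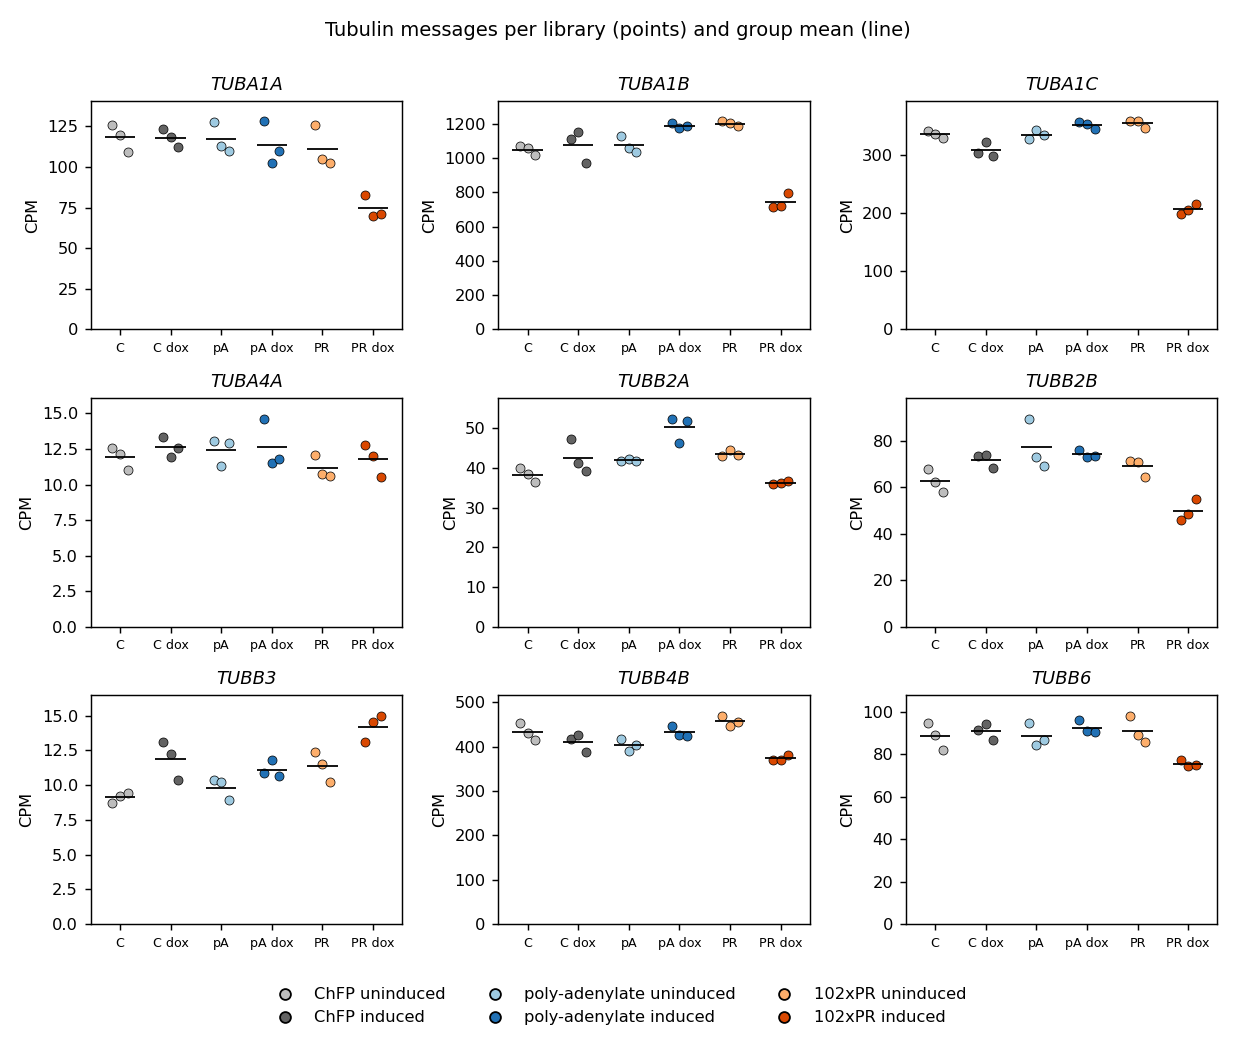
CPM (y axis, from 0) of the 9 tubulin genes tested, 1 panel a gene, in ChFP (C), poly-adenylate (pA) and 102xPR (PR) cells without and with doxycycline (dox); points are libraries and lines group means of 3. In 6 panels the 3 induced 102xPR points lie below all 15 others, for TUBB3 they lie higher than all others, and for TUBA4A and TUBB2A they overlap with them.

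TUBB3, the class III beta tubulin used as a neuronal marker, went the other way. It stood at 13.1, 14.6 and 14.98 CPM after 102xPR induction and at 12.4, 11.5 and 10.2 before. The groups did not overlap, and 35.4% of all genes likewise lay higher without overlap. The log2 change was 0.31 (SE 0.09; adjusted p = 0.00550), a rise of 24.2%. It remains a minor tubulin message, with 281 to 348 counts in each induced library. Of 8 neuron markers tested, 4 rose in the same cells, where 33.8% of all genes tested were called higher. The 4 were INA, an intermediate filament gene (26.5 ± 1.17 to 100.2 ± 3.50 CPM), SYP, of synaptic vesicles (28.3 ± 0.60 to 48.6 ± 6.32), SNAP25, a synaptic fusion protein (1.07 ± 0.23 to 9.10 ± 0.84), and ELAVL3, a neuronal RNA-binding protein (3 counts over the uninduced and 183 over the induced libraries). NEFL, NEFM, GAP43 and RBFOX3 did not pass the test, and DCX and ELAVL4 were too low to test. Summed over all 10 markers, with none at 0 in every library of a group, the level was 578 to 599 CPM in induced 102xPR cells, 460.0 to 495 in uninduced 102xPR cells and 481 to 544 in the other groups. These are messages of marker genes in a bulk culture, and no neuronal cells were identified. NEFM is also among the markers listed below for HEK293 cells and embryonic kidney. A link between the rise of these markers and the TUBB3 result was not tested.

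The other 12 libraries, of the ChFP and poly-adenylate lines, place these values. Against all 15 libraries outside the group, the 3 induced 102xPR libraries were lowest for 6 members and highest for 1, where 25.4% of all genes tested were lower in all 3 and 27.2% higher. TUBA1B was at 970.0 to 1213 CPM in the 15 (median 1128), TUBA1C at 299 to 358 (median 342) and TUBA1A at 102 to 128 (median 113). TUBB4B was at 387 to 469 (median 426), TUBB6 at 81.9 to 98.1 (median 90.6) and TUBB2B at 58.1 to 89.6 (median 71.5). For TUBB3 the gap was narrow: the highest of the 15 stood at 13.07 and the lowest induced 102xPR library at 13.08. TUBB2A overlapped, because uninduced ChFP cells reached down to 36.5 CPM.

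Summed over genes, alpha tubulin fell further than beta. The 4 alpha genes gave 1676 ± 32.3 CPM in uninduced and 1036 ± 50.1 in induced 102xPR cells, and decreased by 38.2%. The beta genes gave 672 ± 18.9 and 549.9 ± 11.1, and decreased by 18.2%. Neither pair of groups overlapped. The ratio of alpha to beta counts was 2.49 ± 0.03 before and 1.88 ± 0.05 after induction, and 2.33 to 2.54 in all 15 other libraries. This ratio holds no TUBB, so it is not the ratio in the cell. All 10 members together took 0.228% to 0.239% of counts in uninduced and 0.156% to 0.170% in induced 102xPR libraries. The plot of summed levels shows both sums and the ratio.

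**Figure D3:**
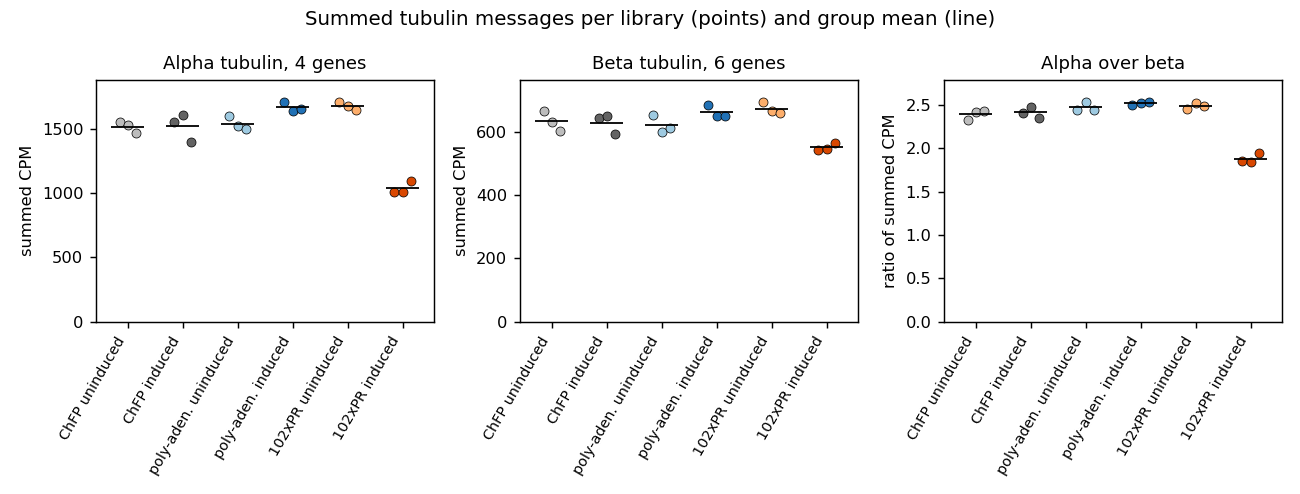
Summed CPM of the 4 alpha and 6 beta tubulin genes and the ratio of the sums (y axes, from 0) in the 6 groups (x axis); points are libraries and lines group means of 3. Induced 102xPR cells are lowest in each panel, with a ratio of 1.88 where the other 15 libraries lie between 2.33 and 2.54.

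Within each family the mix shifted little. TUBA1B made 80.3% ± 0.55 of alpha tubulin messages per length in uninduced and 80.1% ± 0.97 in induced 102xPR cells, and TUBB4B made 71.4% ± 0.82 and 71.3% ± 0.28 of the beta messages counted. TUBA4A went from 0.561% ± 0.031 to 0.961% ± 0.135 of alpha, and TUBB3 from 1.64% ± 0.12 to 2.50% ± 0.15 of beta, both without overlap. TUBA1C went from 12.9% ± 0.13 to 12.1% ± 0.29 of alpha, also without overlap, and per coding length from 21.2% to 20.1%. The shares of TUBA1A, TUBB2A, TUBB2B and TUBB6 overlapped between the groups.

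In the poly-adenylate line edgeR called 1 of 9 members after induction, with 1.08% of all genes called. The call was TUBB2A, at 52.5, 46.3 and 52.0 CPM against 41.9, 42.4 and 41.8, a log2 change of 0.26 (SE 0.06; adjusted p = 0.0459). That call ended without any 1 of induced replicates 1, 2 and 3 or uninduced replicates 2 and 3 (adjusted p = 0.130 to 0.180), in the larger set (0.26, adjusted p = 0.242) and with the covariate for library set (0.22, adjusted p = 0.183). TUBA1B stood at 1205, 1174 and 1184 CPM against 1128, 1056 and 1037, 1 of 5 members whose groups did not overlap where 20.5% of all genes did not, and its log2 difference of 0.15 (SE 0.05) gave an adjusted p of 0.177. TUBA1A, TUBA1C, TUBA4A, TUBB2B, TUBB3, TUBB4B and TUBB6 had log2 differences between -0.06 and 0.18. The median of the 9 was 0.07.

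In the ChFP line edgeR called 1 of 9 members, with 2.01% of all genes called. TUBB3 stood at 13.1, 12.2 and 10.4 CPM in induced and at 8.74, 9.19 and 9.44 in uninduced cells, a log2 change of 0.39 (SE 0.10; adjusted p = 0.0475). The call ended without induced replicate 1 or 2 or any 1 of the uninduced libraries (adjusted p = 0.0904 to 0.247), and with library set as a covariate (0.27, adjusted p = 0.272). TUBA1C was 304, 323 and 299 CPM against 342, 336 and 330, 1 of 3 members whose groups did not overlap where 24.3% of all genes did not, a log2 difference of -0.13 (SE 0.04; adjusted p = 0.109). DESeq2 called TUBA1C lower (adjusted p = 0.0299), as did edgeR with library set as a covariate and the replicate block (-0.15, adjusted p = 0.0140). TUBA1A, TUBA1B, TUBA4A, TUBB2A, TUBB2B, TUBB4B and TUBB6 had log2 differences between -0.08 and 0.19. Summed alpha tubulin was 1516 ± 110.4 CPM in induced and 1515 ± 43.2 in uninduced ChFP cells. The plot of log2 changes sets the 3 lines side by side.

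**Figure D4:**
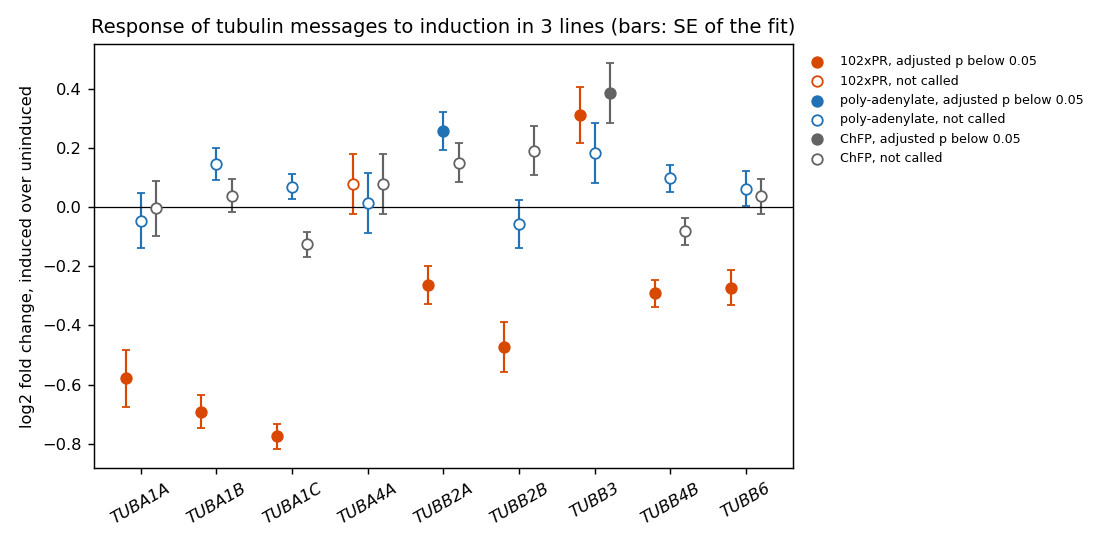
Log2 fold change of induced over uninduced cells (y axis) for the 9 tubulin genes tested (x axis) in the 102xPR, poly-adenylate and ChFP lines; bars are standard errors of the fit and filled points have an adjusted p under 0.05. In 102xPR cells 7 genes lie between -0.78 and -0.26, while poly-adenylate and ChFP values lie between -0.13 and 0.39.

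The difference of the responses was tested directly. The 102xPR response lay below the ChFP response for 7 of 9 members, with 30.3% of all genes called lower. The differences were -0.73 (SE 0.08; adjusted p = 4.19e-08) for TUBA1B, -0.65 (SE 0.06; adjusted p = 5.25e-09) for TUBA1C, -0.58 (SE 0.13; adjusted p = 0.00131) for TUBA1A, -0.66 (SE 0.12; adjusted p = 6.04e-05) for TUBB2B, -0.41 for TUBB2A, -0.31 for TUBB6 and -0.21 for TUBB4B. With library set as a covariate 4 remained: TUBA1B, TUBA1C, TUBB2A and TUBB2B, the last at -0.36. The calls lost were TUBA1A (-0.47, adjusted p = 0.0681), TUBB6 (-0.20, adjusted p = 0.0788) and TUBB4B (-0.10, adjusted p = 0.211). The rise of TUBB3 in 102xPR cells was not called different from that in ChFP cells: the difference was -0.07 with a 95% interval of -0.37 to 0.23, and 0.16 with library set as a covariate. For TUBA4A the difference was -0.00 (95% interval -0.32 to 0.31).

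Against the poly-adenylate response, 7 of 9 members were again lower in the 102xPR line, with 29.6% of all genes called lower. TUBA1C (-0.84, SE 0.06; adjusted p = 1.11e-10) and TUBA1B (-0.84, SE 0.08; adjusted p = 5.31e-09) led, followed by TUBA1A (-0.53), TUBB2A (-0.52), TUBB2B (-0.42), TUBB4B (-0.39) and TUBB6 (-0.34). Within the larger library set 4 remained, and TUBA1A (-0.49, adjusted p = 0.102), TUBB6 (-0.26, adjusted p = 0.0578) and TUBB2B (-0.06, adjusted p = 0.656) did not pass. With library set as a covariate 5 remained, and TUBA1A (-0.44, adjusted p = 0.0885) and TUBB2B (-0.13, adjusted p = 0.296) did not pass. The 2 comparisons share the 102xPR libraries. The poly-adenylate and ChFP responses differed for 0 of 9 members by edgeR's quasi-likelihood test, with 0.0259% of all genes called. The nearest were TUBA1C (0.19, 95% interval 0.06 to 0.32, unadjusted p = 0.00351), TUBB4B (0.18, unadjusted p = 0.0103) and TUBB2B (-0.25, unadjusted p = 0.0437), the 3 with an unadjusted p under 0.05. DESeq2 called TUBA1C (adjusted p = 0.0303).

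Between induced cells, 102xPR lay below ChFP for 7 members, with 33.9% of all genes called lower, from -0.67 for TUBA1A to -0.13 for TUBB4B. TUBA1C was 207 ± 8.71 CPM in induced 102xPR and 308 ± 12.8 in induced ChFP cells. TUBB3 was higher (log2 difference 0.26, adjusted p = 0.0229), where 32.9% of all genes were. That call ended without induced 102xPR replicate 2 or 3 or induced ChFP replicate 3 (adjusted p = 0.0685 to 0.140) and in the larger library set (0.24, adjusted p = 0.147). TUBB4B lost its call without induced ChFP replicate 2 (-0.10, adjusted p = 0.0743). Against induced poly-adenylate cells, 102xPR lay below for the same 7 genes, with 34.9% of all genes called lower, from -0.76 for TUBA1C to -0.21 for TUBB4B, and above for TUBB3 (0.35, adjusted p = 0.00211), with 34.3% called higher. Between induced poly-adenylate and induced ChFP cells edgeR called 1 of 9 members, TUBA1C (352 ± 6.06 against 308 ± 12.8 CPM, a log2 difference of 0.19, adjusted p = 0.0381), with 0.939% of all genes called. That call ended without any 1 of the induced poly-adenylate libraries or without induced ChFP replicate 1 or 3 (adjusted p = 0.0785 to 0.169), and in the larger library set (0.17, adjusted p = 0.132). TUBB2A (0.23, adjusted p = 0.0661) was called by DESeq2 (adjusted p = 0.0304), with the replicate number as a block (adjusted p = 0.0407), without induced ChFP replicate 1 (0.32, adjusted p = 0.0458) and with the covariate for library set (adjusted p = 0.0413).

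Uninduced cells were alike in most members. TUBA1B was higher in uninduced 102xPR than in uninduced ChFP cells (1199.5 ± 14.7 against 1048 ± 28.5 CPM, a log2 difference of 0.19, adjusted p = 0.0257), as was TUBB3 (11.4 ± 1.07 against 9.12 ± 0.36, 0.33, adjusted p = 0.0343), 2 of 9 members by edgeR where 12.2% of all genes were called. TUBB2A (0.18, adjusted p = 0.0598) was called higher by DESeq2 (adjusted p = 0.0492), with the replicate number as a block (adjusted p = 0.0449) and with the compared groups alone (adjusted p = 0.0146). All 3 uninduced ChFP libraries belonged to the smaller library set and all 3 uninduced 102xPR libraries to the larger, and with library set as a covariate neither passed (0.03, adjusted p = 0.903, and 0.16, adjusted p = 0.783). The call of TUBA1B also ended without any 1 of the 6 libraries (adjusted p = 0.0602 to 0.0942), and that of TUBB3 without any 1 but uninduced 102xPR replicate 3 (adjusted p = 0.0613 to 0.151). TUBB4B was higher in uninduced 102xPR than in uninduced poly-adenylate cells (457 ± 11.1 against 404 ± 13.4 CPM, 0.18, adjusted p = 0.0185), 1 of 9 members where 7.82% of all genes were called. It did not pass without uninduced 102xPR replicate 1 or 3 or uninduced poly-adenylate replicate 2 or 3 (adjusted p = 0.0564 to 0.103), with library set as a covariate (0.13, adjusted p = 0.0758) or in the larger set (0.14, adjusted p = 0.214). TUBB2B was lower in uninduced 102xPR cells in the larger set (-0.37, adjusted p = 0.0059) and with the covariate (-0.30, adjusted p = 0.00392). TUBA1B was not called between uninduced 102xPR and uninduced poly-adenylate cells in the main fit (0.16, adjusted p = 0.0719). DESeq2 called it higher in uninduced 102xPR cells (adjusted p = 0.0259). So did edgeR without a filter (adjusted p = 0.0486) and without uninduced poly-adenylate replicate 1 (adjusted p = 0.0244). No member was called between uninduced poly-adenylate and uninduced ChFP cells by edgeR, with 0.104% of all genes called. There 2 members had an unadjusted p under 0.05, TUBB2B (77.2 ± 10.9 against 62.8 ± 4.84 CPM) and TUBB4B (404 ± 13.4 against 433 ± 18.8 CPM). The share of all genes at such a p is not given here. DESeq2 called neither, and edgeR with library set as a covariate and the replicate block called TUBB2B (0.22, adjusted p = 0.0156).

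The genes most like the 3 most abundant members were found over the 6 group means of log2 CPM, each centred on its own mean, among 6800 genes outside the tubulins. For TUBA1B these were PGAM1, an enzyme of glycolysis (root mean square difference 0.014 log2 units; log2 change after 102xPR induction -0.71), OGFR (0.015), LAPTM4A (0.018), RXRA, a nuclear receptor (0.020), and EIF5A, a translation factor (0.020). For TUBB4B they included ACTR1A, a dynactin subunit (0.016), SAMD4B (0.018) and FEN1, a DNA replication nuclease (0.021). For TUBA1C they were RNF187 (0.031), KIAA0930 (0.032), BRD3OS (0.033), ACOT7 (0.035) and ATG9A (0.036). The match is over 6 points a gene and is given as a description.

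The other tubulin genes did not share one direction. Of 12 listed, 8 passed the filter, and after 102xPR induction 3 rose, 1 fell and 4 did not pass the test, with a median log2 change of 0.40. TUBB4A, a further beta tubulin, fell by 0.91 (SE 0.09; 65.1 ± 4.48 to 34.5 ± 5.32 CPM; adjusted p = 3.15e-08). TUBA8, a low-level alpha tubulin, rose by 1.00 (SE 0.16; 2.80 ± 0.21 to 5.59 ± 1.11 CPM). TUBG2, a gamma tubulin of microtubule nucleation, rose by 0.89 (SE 0.09; 12.6 ± 0.80 to 23.2 ± 2.50 CPM), and TUBE1, the epsilon tubulin of centrioles, rose by 0.68 (SE 0.07; 26.9 ± 1.33 to 43.0 ± 1.33 CPM). Grouped by coding start, 13 tubulin genes tested carry the arginine-glutamate codons in the same places as the members. The starts of TUBA3D, TUBA8, TUBB1 and TUBB4A among them are not printed above. Of these 8 fell, 2 rose (TUBB3 and TUBA8) and 3 did not pass. Of the 4 without them in those places (TUBG1, TUBG2, TUBD1 and TUBE1), 2 rose, 2 did not pass and none fell. TUBG1 and TUBG2 carry such codons a codon later. Across all genes tested 33.4% were called lower and 33.8% higher, and with only 4 genes the absence of a fall decides nothing. The split by coding start was made with the values known and was not tested.

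Of the 12 genes of the autoregulation pathway, 5 rose, 1 fell and 6 did not pass, with a median log2 change of 0.03. For this list and those that follow, the background is 33.8% of all genes called higher and 33.4% called lower. Whether any list departs from that background was not tested. TTC5, which reads the nascent chain, was 26.9 ± 0.29 CPM in uninduced and 26.0 ± 1.27 in induced 102xPR cells (log2 difference -0.05, adjusted p = 0.479). SCAPER, the adaptor to the deadenylase, rose by 0.29 (SE 0.10; 14.97 ± 1.46 to 18.3 ± 1.51 CPM; adjusted p = 0.0113). CNOT10 rose by 0.89 (SE 0.05; 66.6 ± 3.45 to 123.02 ± 1.26 CPM), CNOT2 rose by 0.65 (SE 0.06), and CNOT1, the scaffold of CCR4-NOT, rose by 0.38 (SE 0.09). CNOT7, a catalytic subunit, rose by 0.11 (SE 0.04; adjusted p = 0.0351). CNOT6, the other catalytic subunit called, fell by 0.12 (SE 0.05; adjusted p = 0.0293).

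Of 21 genes for folding and dimer assembly 20 were tested, and 9 rose, 6 fell and 5 did not pass (median 0.04). The genes named of this list went both ways. PFDN1, a subunit of prefoldin, rose by 0.66 (SE 0.05; 87.1 ± 3.51 to 138 ± 2.50 CPM). TBCC, the cofactor that completes dimer release, rose by 0.74 (SE 0.06; 32.8 ± 0.89 to 54.6 ± 1.87 CPM). TBCD and TBCA, both of which hold beta tubulin, fell by 0.88 (SE 0.07; 43.7 ± 2.99 to 23.9 ± 1.38 CPM) and by 0.49 (SE 0.06; 175 ± 6.72 to 124 ± 3.29 CPM). PFDN6, also a prefoldin subunit, had 8 counts in all. ATAT1 of the next list, which lies in the sparse stretch around TUBB, had 0.

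Of 21 enzymes that modify tubulin 18 were tested, and 4 rose, 7 fell and 7 did not pass (median -0.05). VASH1 and VASH2, which remove the last tyrosine of alpha tubulin, fell by 1.03 (SE 0.07; 59.1 ± 0.87 to 29.02 ± 2.15 CPM) and by 1.12 (SE 0.08; 22.0 ± 0.92 to 10.2 ± 0.55 CPM). TTLL12, of the tubulin tyrosine ligase-like family, fell by 0.33 (SE 0.05; 305 ± 7.05 to 243 ± 11.4 CPM). AGTPBP1, which trims glutamates from tubulin, rose by 0.56 (SE 0.06; 68.5 ± 5.33 to 101 ± 4.05 CPM).

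Of 12 genes that destabilise or sever microtubules 11 were tested, and 4 rose, 5 fell and 2 did not pass (median 0.01). The tubulin-binding stathmins STMN1 (324 ± 6.0 to 203 ± 5.10 CPM) and STMN3 (93.9 ± 2.49 to 47.1 ± 2.33 CPM) fell by 0.68 (SE 0.04) and by 1.00 (SE 0.06). STMN4 rose from 0.044 ± 0.009 to 7.76 ± 1.27 CPM, from 3 counts over the uninduced libraries. KIF18A, a kinesin of the spindle, rose by 0.81 (SE 0.07; 29.5 ± 0.82 to 51.7 ± 2.84 CPM). Of 23 genes for microtubule-associated proteins 21 were tested, and 10 rose, 3 fell and 8 did not pass (median 0.12). PRC1, which bundles spindle microtubules, rose by 0.70 (SE 0.05; 170.4 ± 5.33 to 277 ± 6.78 CPM), CKAP5, a tubulin polymerase, by 0.54 (SE 0.07) and MAP1S by 0.79 (SE 0.06). MAP2, a neuronal protein, rose from 0.85 ± 0.15 to 3.801 ± 0.27 CPM. Of the 10 genes of the gamma-tubulin ring complex and its partners, 2 rose, 6 fell and 2 did not pass (median -0.20). CDK5RAP2, which tethers the complex to centrosomes, rose by 1.02 (SE 0.06; 69.1 ± 2.69 to 140.4 ± 4.60 CPM), and the complex subunits TUBGCP4 (-0.41, SE 0.07), MZT1 (-0.22, SE 0.05) and MZT2A (-0.65, SE 0.13) fell.

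In the poly-adenylate line edgeR's quasi-likelihood test called 0 of the 100 genes tested in these 7 lists, against 1.08% of all genes. Of the 100, 19 had an unadjusted p under 0.05. In the ChFP line the test called 2 of the 100, against 2.01% of all genes, and 20 had an unadjusted p under 0.05. The 2 were CCT5, a chaperonin subunit (-0.17, adjusted p = 0.0435), and PRC1 (-0.19, adjusted p = 0.0423), and both fell. The share of all genes at such an unadjusted p is not given here, so the 19 and 20 do not set these lists apart. With library set as a covariate, 4 of the other tubulin genes rose and 2 fell after 102xPR induction, 9 associated proteins rose and 6 fell, and 1 gene of the ring complex rose and 6 fell; within the larger library set 3 autoregulation genes rose and 0 fell, and 6 folding genes rose and 6 fell.

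Of the markers listed for HEK293 cells and embryonic kidney, VIM, CDH2, NEFM and PAX2 were present and LHX1 was near 0. In induced 102xPR cells VIM rose (log2 change 0.52, SE 0.07) and PAX2 fell (-0.32, SE 0.12), and their part in the tubulin results was not tested. Markers of other cells stayed low: the 6 of blood cells summed to 2.34 to 3.99 CPM and the 5 of hepatocytes to 0.161 to 1.51 CPM over all groups, the highest hepatocyte sums being those of induced 102xPR cells. CD3E, of T cells, was at 0 in all 18 libraries, and SERPINA1, of hepatocytes, in 5 of 6 groups. The 5 epithelial markers summed to 56.2 to 66.9 CPM.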

How the data were processed

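Poly(A)-selected RNA of 18 libraries was read in single 100-base reads, per the labels' protocols. The deposited file holds raw counts per gene, made by the authors; the submitters' processing notes name bcl2fastq 2.20.0.422, cutadapt 3.4, HISAT2 2.1.0, featureCounts, DESeq2 1.30.1 and hg38. Not given in the sources used here: the annotation, the strand setting and the treatment of reads that fit several genes. Rows without a symbol (550, 0.0410% of counts) stayed in the tests by their identifier.

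Depth was 15020739 to 27331102 counts a library. Counts were fitted with edgeR 4.0.16 in R 4.3.3: genes were kept by filterByExpr with a minimum count of 10, scaled by TMM, and tested by the quasi-likelihood test over all 18 libraries with 1 mean for each of 6 groups, in 12 comparisons. P-values were adjusted by Benjamini-Hochberg over the 15447 genes tested in each comparison, and calls have an adjusted p under 0.05. Where a group held only 1 to 3 counts of a gene, no fold change is printed. Intervals are 95% with 12 degrees of freedom. Alternatives were DESeq2 size factors, library totals, no filter and a stricter one (minimum count 50), DESeq2 1.42.0 with its Wald test, the replicate number as a block, library set as a covariate (alone and with the block), the larger library set alone, the compared groups alone and leaving out each library. The method recovered known changes when tested on simulated data.

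Levels per length used library totals and GENCODE 29 transcripts (GRCh38) in place of the RefSeq transcripts planned. Sequences and windows came from the same transcripts, read with Biopython 1.88; positions came from RefSeq on GRCh38.p14. The library sets were split at the widest gap on the second principal component of log2 CPM. The text names the 10 members; TTC5 and SCAPER; of each pathway list up to 4 called genes with the smallest adjusted p in the 102xPR induction or in its difference from the ChFP response; and the 5 genes nearest in pattern to each of the 3 most abundant members. CNOT6, CNOT7, CCT5, PFDN6 and ATAT1 were named after their values were seen. The members and lists were chosen with earlier results of these data known. Some genes that these rules name are not reported here.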

Additional observations from a re-analysis of the deposited data

Results flagged for a closer look

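The difference between the 102xPR response and that of another line was called for 7 members, and these are listed for a closer look. Across all genes tested 30.3% were called lower against the ChFP response and 29.6% against the poly-adenylate response. With library set as a covariate, TUBA1A, TUBB4B and TUBB6 lost the call against ChFP. TUBA1A and TUBB2B lost the call against poly-adenylate with that covariate. Set against the ChFP response, the log2 differences were -0.58 for TUBA1A, -0.73 for TUBA1B, -0.65 for TUBA1C, -0.41 for TUBB2A, -0.66 for TUBB2B, -0.21 for TUBB4B and -0.31 for TUBB6. Set against the poly-adenylate response, they were -0.53 for TUBA1A, -0.84 for TUBA1B, -0.84 for TUBA1C, -0.52 for TUBB2A, -0.42 for TUBB2B, -0.39 for TUBB4B and -0.34 for TUBB6. Both comparisons use the same 102xPR libraries.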

How the results depend on the processing

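Over all comparisons, 1760 of 1845 values of the members under an alternative kept their direction where called and their side of the threshold, 63 lost a call, 22 gained one and 0 reversed. After 102xPR induction 7 lower and 1 higher member were called under every alternative. The counts that moved were small or rested on library set, and except for fewer genes tested or fewer libraries the cause was not tested. In the poly-adenylate induction the 1 higher call became 0 with library totals, the stricter filter, library set as a covariate, the larger library set alone or the compared groups alone, and 0 to 2 on leaving out 1 library. In the ChFP induction the 1 higher call became 0 with library set as a covariate, with or without the replicate block, or with the compared groups alone, and 0 to 1 on leaving out 1 library, while DESeq2 and the covariate with the block called 1 lower. Against the ChFP response, 102xPR was lower for 4 members with library set as a covariate, and against the poly-adenylate response for 4 in the larger set alone; the former could not be fitted in the larger set, which holds no uninduced ChFP library. Between the poly-adenylate and ChFP responses DESeq2 called 1 higher, and the covariate with the block 2 higher and 1 lower. Between induced 102xPR and ChFP cells the higher count was 0 in the larger set and 0 to 1 on leaving out 1 library, and the lower count 6 to 7. Between induced poly-adenylate and ChFP cells the 1 higher call became 2 with DESeq2, the replicate block or library set as a covariate (with or without the block), 0 with library totals, the larger set or the compared groups alone, and 0 to 1 on leaving out 1 library. Between uninduced 102xPR and ChFP cells the 2 higher calls became 0 with the covariate, with or without the block, and 0 to 1 on leaving out 1 library; between uninduced poly-adenylate and ChFP cells the covariate with the block called 1. Between uninduced 102xPR and poly-adenylate cells the higher count was 2 without a filter or with DESeq2, 0 with the covariate, the larger set or the compared groups alone, and 0 to 2 on leaving out 1 library; 1 was lower with the covariate, with or without the block, and in the larger set.

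The labels do not say that a replicate number marks a shared batch, and the numbers were not taken to pair the libraries, since not every pair's deviations correlated above 0.1. Of 9 pairs within lines the correlation was 0.00212 to 0.166, 3 were above 0.1, and 6 correlated best with their own number, which is a hint from the data that numbers may share something. The replicate block left 7 lower and 1 higher member after 102xPR induction, and moved the calls over all genes from 10391 to 10584 there, from 311 to 703 in the ChFP induction and from 167 to 269 in the poly-adenylate induction. Sums by library totals moved by less than their spread, and shares by coding length moved for most members. Depth limits TUBA4A and TUBB3, with 152 to 348 counts a library, more than the other members tested.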
